A study of Mus musculus with 81 samples.

Results

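The genes described here are 9 marker genes of alternative macrophage activation, taken by symbol out of 54079 genes listed in each of 81 RNA-seq libraries of mouse macrophages and their progenitors with or without a conditional deletion of the histone H3.3 genes. They are Retnla, Chil3, Arg1, Cbr2, Mrc1, Cd163, Mgl2, Clec10a and Folr2. Retnla and Cbr2 were chosen by measured values, since they were among the genes that fell most in the H3.3cKO cells of these same libraries, so their values between the genotypes are given as descriptions with no test, and only the other 7 genes are counted in those comparisons. Comparisons within a genotype reuse these libraries. Calls and counts there that include Cbr2 are therefore not independent of that choice.

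WT libraries came from mice with floxed copies of both genes that encode H3.3 (H3f3a fl/fl:H3f3b fl/fl) and no cre, and H3.3cKO libraries (cKO below) came from mice that also carried LysM cre/cre, all of them adult and on a C57BL/6 background. LysM cre is expressed from the Lyz2 locus in myeloid cells, so in this model deletion of the H3.3 genes went together with loss of both intact Lyz2 copies. Bone marrow cells were grown with M-CSF into bone marrow-derived macrophages (BMDMs) and read as progenitors at days 3 and 5, as BMDMs at day 7, as BMDMs at day 8 with or without interferon gamma (IFNγ) for 12 h, and as BMDMs cultured with no antibody, a control antibody or an antibody against the type I interferon receptor IFNAR1. A further experiment held 3 WT sets and 3 cKO sets of BMDMs beside double knockouts labelled H3.3cKO:StingKO, H3.3cKO:MavsKO and H3.3cKO:Irf7KO, all of which also carried the H3.3 deletion, and the last experiment held resident peritoneal macrophages of WT and cKO mice. Each of the 27 groups had 3 libraries titled as biological replicates, apart from 2 in each cKO day 8 group. No label ties a WT or cKO set to 1 of the double knockouts, and peritoneal RNA was, per the study's methods, prepared with another kit than BMDM RNA, so levels across experiments are set side by side without a test.

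Alternative activation is the state that macrophages take on when interleukin-4 or interleukin-13 bind their receptors and activate the transcription factor STAT6. Retnla and Chil3 encode secreted proteins of this state, Arg1 encodes the enzyme that turns arginine into ornithine, and Mrc1, Mgl2 and Clec10a encode lectins that bind sugars on the cell surface. Several of the markers are also carried by macrophages that reside in tissues with no added interleukin: Cd163, the scavenger receptor for haemoglobin bound to haptoglobin, Folr2, a folate receptor, and Cbr2, a carbonyl reductase, are of this kind. IFNγ drives the opposing, classical activation.

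Counts assigned to genes ran from 3614967 to 45581528 a library (median 1.833e+07), and levels below are counts per 1000000 counts on genes (CPM), scaled with edgeR's TMM factors. One library, cKO day 8 IFNγ replicate 1, had the lowest count and 57.06% unmapped reads. H3f3a stood at 1.21 to 15.3 CPM in cKO libraries against 33.6 to 93.8 in WT. The second H3.3 gene, H3f3b, was at 16.7 to 67.8 CPM in cKO and 295 to 468 in WT in the antibody experiment. In the others, the double knockouts aside, it was at 149 to 361 CPM in cKO and 181 to 536 in WT. There the gene-level count does not show a full loss of H3f3b in cKO. The paper reports that H3f3b deletion varied between cKO samples, complete in some and partial in others. Whether cKO libraries outside the antibody experiment kept H3f3b was not tested. In the double knockouts the Sting gene Tmem173 and Irf7 were below their levels in the cKO sets, while Mavs stood at 37.2 to 37.9 CPM in the libraries labelled H3.3cKO:MavsKO against 36.0 to 51.6 in the cKO sets, so a gene-level count does not check that label. The macrophage markers Adgre1 and Csf1r were present in all groups, and the resident peritoneal marker Gata6 was at 92.2 to 175 CPM in peritoneal libraries.

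The 9 genes lie at separate sites of the mouse genome apart from one pair (GRCm38). Retnla is at chr16:48842551-48844461 on the plus strand, Chil3 at chr3:106147554-106167564 on the minus strand, Arg1 at chr10:24915221-24927484 on the minus strand and Cbr2 at chr11:120729489-120732114 on the minus strand. Mrc1 is at chr2:14229392-14332057 and Cd163 at chr6:124304656-124330527, both on the plus strand. Mgl2 (chr11:70130329-70137550, plus strand) and Clec10a (chr11:70156197-70170834, plus strand) are neighbouring paralogs, so reads that match both could have been split or dropped in counting. Folr2 (chr7:101839988-101857194, minus strand) shares exon bases with the antisense gene Gm10602, and in counts made without strand the reads of both cannot be told apart.

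Promoter sequences (250 bases before to 50 after the transcription start) were found for 7 of the 9 genes in RefSeq tables of GRCm38.p6, all but Arg1 and Clec10a. They were searched on both strands for the 10-base site with a spacing of 4 that STAT6 binds (TTCNNNNGAA), the 9-base site of other STATs (TTCNNNGAA), the C/EBP core (TTGCNNAA), the core of the interferon-stimulated response element (GAAANNGAAA) and the PU.1 core (GAGGAA). Of 32851 mouse promoters of the same length, 6.95% held the first, 8.30% the second, 10.8% the third, 3.44% the fourth and 28.3% the last. The 4 sequences below belong to Retnla and Cbr2, which were chosen for their fall in cKO cells, to Chil3, which differed between the genotypes in the opposite direction in culture, and to Mrc1, which was called in the most comparisons of the counted genes. They are written 5′ to 3′ on the gene's strand, with matches to either STAT site in capitals.
Retnla, chr16:48842359-48842658, plus strand: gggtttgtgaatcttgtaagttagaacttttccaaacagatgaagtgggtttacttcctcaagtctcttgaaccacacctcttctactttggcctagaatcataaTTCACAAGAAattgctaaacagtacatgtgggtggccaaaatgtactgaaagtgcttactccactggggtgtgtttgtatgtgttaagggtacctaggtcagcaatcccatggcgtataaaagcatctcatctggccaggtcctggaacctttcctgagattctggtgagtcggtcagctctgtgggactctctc
Cbr2, chr11:120731972-120732271, minus strand: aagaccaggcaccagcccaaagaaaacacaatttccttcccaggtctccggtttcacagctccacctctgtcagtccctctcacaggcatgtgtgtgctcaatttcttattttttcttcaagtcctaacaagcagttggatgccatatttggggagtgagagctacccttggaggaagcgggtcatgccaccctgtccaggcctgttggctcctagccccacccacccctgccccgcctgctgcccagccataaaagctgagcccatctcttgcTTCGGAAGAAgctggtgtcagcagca
Chil3, chr3:106167515-106167814, minus strand: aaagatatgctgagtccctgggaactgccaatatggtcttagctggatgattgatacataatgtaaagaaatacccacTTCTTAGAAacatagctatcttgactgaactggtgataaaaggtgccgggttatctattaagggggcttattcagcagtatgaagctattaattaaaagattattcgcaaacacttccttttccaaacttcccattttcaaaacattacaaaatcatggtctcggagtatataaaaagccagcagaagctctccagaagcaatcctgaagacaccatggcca
Mrc1, chr2:14229164-14229463, plus strand: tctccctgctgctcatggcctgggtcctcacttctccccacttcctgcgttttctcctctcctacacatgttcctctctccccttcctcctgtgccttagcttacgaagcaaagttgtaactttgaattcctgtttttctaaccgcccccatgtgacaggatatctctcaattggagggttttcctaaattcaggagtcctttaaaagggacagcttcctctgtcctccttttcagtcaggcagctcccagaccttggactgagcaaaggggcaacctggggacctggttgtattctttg
In the Retnla promoter the match TTCACAAGAA begins 145 bases before the start, and a C/EBP core, TTGCTAAA, begins 134 bases before the start, with 1 base between them. The Chil3 match, TTCTTAGAA, begins 172 bases before the start and is of the 9-base kind. The Cbr2 match, TTCGGAAGAA, lies 24 bases after the start. The Mrc1 window held neither STAT site and 3 PU.1 cores, and single PU.1 cores lay in the Retnla, Cbr2 and Mgl2 windows, with no match overlapping another. None of the windows of the 7 genes held the interferon element's core, Cd163, Mgl2 and both windows of Folr2 included. That says only that these letters are not in these windows.

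The 9 genes differed widely in level, and the order was not the same in the tissue and in culture. Per kilobase of exon, Retnla led in WT peritoneal macrophages at 978 ± 1041 CPM per kb (SD, n = 3), followed by Arg1 at 59.6 ± 27.002 and Chil3 at 40.0 ± 19.4. Only the step from Retnla to Arg1 was free of overlap between libraries, and Folr2 was lowest at 1.09 ± 1.28. In WT BMDMs at day 7 Mrc1 led at 195 ± 86.0 CPM per kb, ahead of Cbr2 at 35.5 ± 4.52 and Chil3 at 9.06 ± 0.45. Each of these steps was free of overlap, whereas Cd163, Clec10a and Folr2, which followed, overlapped their neighbours.

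Retnla rose above the floor in peritoneal libraries alone. In 73 cultured libraries 60 had no Retnla count, 13 had 1 or 2, and the sum over all of them was 14. A floor of 3 counts stands for 0.0658 CPM in the largest cultured library and 0.830 CPM in the smallest, so lower levels were not detectable at this depth. Retnla therefore passed the filter on low counts in the peritoneal experiment alone, where Folr2 did not pass. The other 8 genes passed in the time course, antibody and double knockout experiments, and at day 8 only Mrc1, Cd163, Cbr2, Clec10a and Folr2 did.

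**Figure D1:**
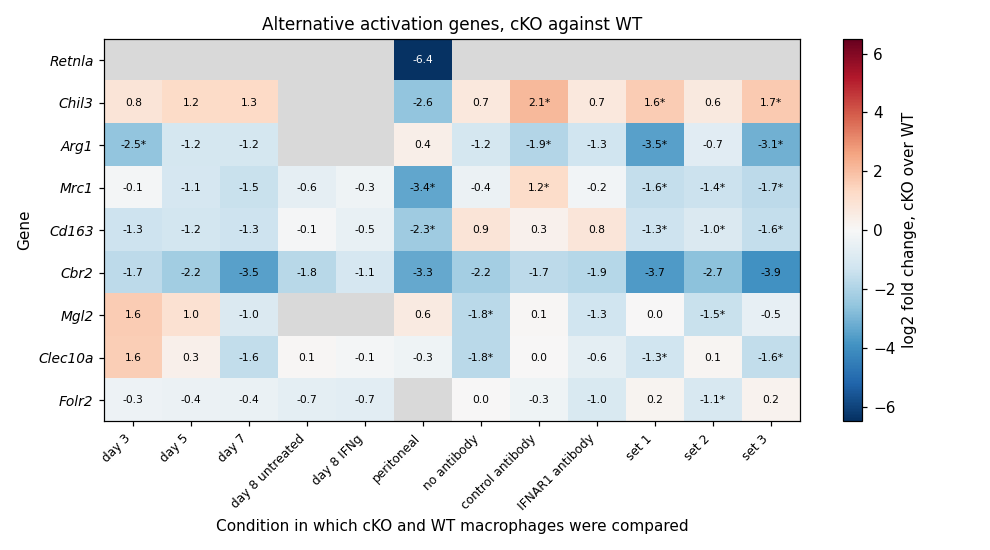
Fitted log2 fold changes of the genes (rows) in cKO against WT libraries in each of the comparisons between these genotypes (columns), with calls at an adjusted p under 0.05 marked and Retnla and Cbr2 shown as descriptions. The Cbr2 row is negative in every column, from -1.07 at day 8 with IFNγ to -3.95 in set 3, while the Chil3 row, where it was tested, is negative in peritoneal macrophages only.

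In resident peritoneal macrophages Retnla, Mrc1, Cd163, Cbr2 and Chil3 were lower in every cKO library than in any WT library, as was Folr2 at few counts. The share of all genes that separated in this way was not counted, and Retnla and Cbr2 were chosen for their fall. Retnla was at 1304, 179 and 274 CPM in the WT libraries and 7.66, 6.70 and 5.85 CPM in the cKO libraries. The WT libraries varied widely, yet the lowest lay far above the highest cKO library, and the group means stood 86.9-fold apart (fitted log2 fold change -6.42 ± 0.80, SE). Without WT replicate 1, which had the highest level, the log2 fold change was -5.05. In bulk RNA fewer cells of a type and less RNA per cell cannot be told apart, here or below.

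Mrc1, the mannose receptor, was at 37.7, 16.1 and 30.6 CPM in WT and 3.34, 2.90 and 1.56 CPM in cKO peritoneal macrophages. The groups did not overlap, and Mrc1 fell in cKO by 10.8-fold in the means (log2 fold change -3.35 ± 0.38, edgeR adjusted p = 0.00794), a call kept in 12 of 12 alternative fits, with adjusted p from 9.76e-27 to 0.039. Cd163 was at 56.2, 25.3 and 33.9 CPM in WT and 5.26, 11.3 and 6.89 CPM in cKO libraries. It fell as well (log2 fold change -2.29 ± 0.37, edgeR adjusted p = 0.0281), but the call was kept in 8 of 12 alternative fits, with adjusted p from 1.92e-15 to 0.13. It was lost with the replicate number as a block (adjusted p = 0.0908) and without WT replicate 3 (-2.40) or cKO replicate 1 (-2.05) or 3 (-2.21).

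These were 2 of the 6 counted genes, beside 1.06% of all genes tested. Cbr2, in the same tissue, was at 54.7, 13.3 and 21.4 CPM in WT and 2.87, 2.90 and 3.25 CPM in cKO libraries, with no overlap and 9.91-fold between the means (log2 fold change -2.55 without WT replicate 1 and -3.30 with it). Chil3, the chitinase-like protein Ym1, was at 59.0, 37.3 and 99.7 CPM in WT and 7.75, 20.2 and 4.29 CPM in cKO libraries. All WT libraries were above all cKO libraries, but the difference missed the threshold (log2 fold change -2.57 ± 0.55, edgeR adjusted p = 0.0887), and it was called without cKO replicate 2 (-3.39).

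Arg1, Mgl2 and Clec10a overlapped between the genotypes. Arg1, which shares the interleukin-4 response with Retnla, was at 202, 97.4 and 98.7 CPM in WT and 88.0, 297 and 137 CPM in cKO libraries, with a log2 difference of 0.39 (95% interval -0.48 to 1.27). The paralogous lectins Mgl2 and Clec10a had differences of 0.56 (-0.34 to 1.47) and -0.27 (-1.03 to 0.49). Folr2 was at 3.93, 0.21 and 0.91 CPM in WT and 0.0428, 0.16 and 0 CPM in cKO libraries, without overlap, but with too few counts for a test.

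**Figure D2:**
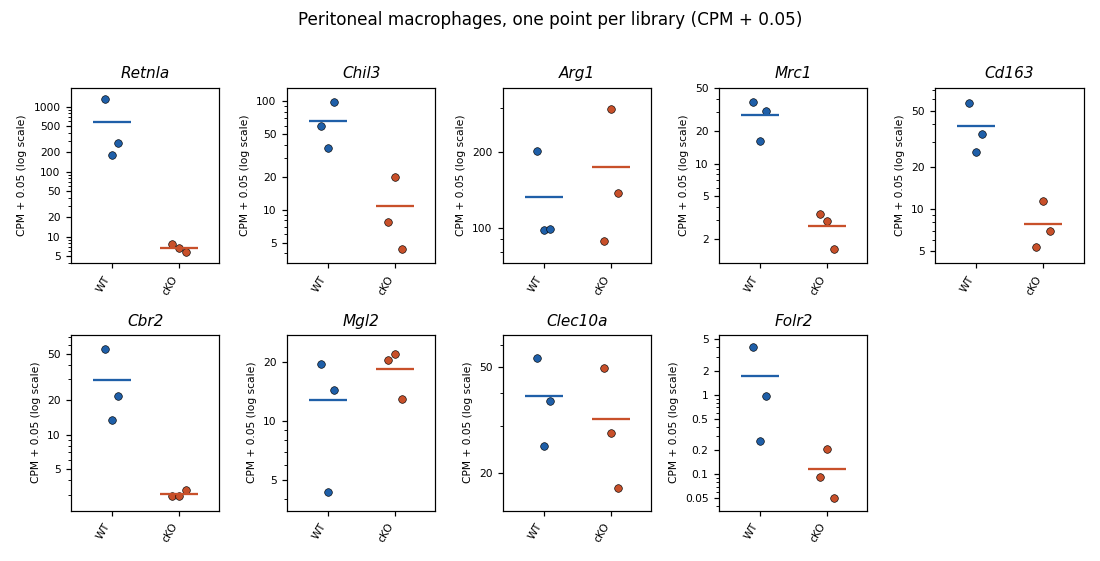
Levels in CPM (log axis) of the genes in peritoneal macrophages, 1 point a library for 3 WT and 3 cKO libraries. Retnla, Mrc1, Cd163, Cbr2, Chil3 and, at few counts, Folr2 have every WT point above every cKO point, whereas Arg1, Mgl2 and Clec10a have the genotypes intermixed.

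Other cell types were looked for in the same libraries. The summed level of 5 monocyte markers, Chil3 among them, was 202 to 278 CPM in WT and 562 to 929.8 CPM in cKO libraries, with Plac8 called higher in cKO. The 5 markers of resident peritoneal macrophages summed to 9193 to 10297 CPM in WT and 8536 to 9552 CPM in cKO libraries, and none of them was called. Summed T cell markers were at 2.06 to 10.7 and 8.39 to 32.4 CPM. Of the eosinophil genes, Epx and Prg2 were at 0. Siglecf was at 0 to 1.09 CPM in WT and 0.95 to 1.755 CPM in cKO, and Ccr3 at 0.43 to 0.50 and 0.39 to 1.58 CPM. The part of the monocyte, T cell and eosinophil RNA in the results above was not tested. Of 64 further genes of the interleukin-4, interleukin-13 and interleukin-10 pathways and of resident macrophages, 52 passed the filter, and 1 of 52 was higher and 5 were lower, with a median log2 fold change of -0.20 against 0.0045 over all genes tested. Among the lower were F13a1, a coagulation factor subunit (-4.21 ± 0.57, edgeR adjusted p = 0.0142), Lyve1, a hyaluronan receptor (-3.99 ± 0.72), and Vsig4, a complement receptor (-1.88 ± 0.17). The one that rose was Siglec1, a sialic acid receptor (2.18 ± 0.33).

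Along the culture from bone marrow progenitors to BMDMs Chil3 declined in both genotypes and stood higher in cKO. In WT it was at 158, 226 and 319 CPM at day 3, 60.9, 79.8 and 79.1 at day 5 and 14.9, 15.5 and 14.01 at day 7. In cKO it was at 498, 375 and 394 CPM at day 3, 289, 121 and 104 at day 5 and 57.0, 24.0 and 26.0 at day 7. The days did not overlap within either genotype, and at each day every cKO library was above every WT library.

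The fall of Chil3 passed the test in WT from day 3 to 5 (log2 fold change -1.68 ± 0.37, edgeR adjusted p = 0.0235) and from day 5 to 7 (-2.31 ± 0.39, adjusted p = 0.0267), and in cKO from day 5 to 7 (-2.27 ± 0.38, adjusted p = 0.0486). Leaving out WT day 3 replicate 3 or any WT day 5 library lost the first call (log2 fold changes from -1.39 to -1.77), and WT day 5 replicate 2 or 3 or WT day 7 replicate 2 the second. The cKO call was lost without cKO day 5 replicate 1 (-1.67) or cKO day 7 replicate 2 (-2.05) or 3 (-2.09). The higher level in cKO was not called at any day, with log2 differences of 0.85, 1.23 and 1.27 (adjusted p = 0.176, 0.0959 and 0.102).

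Chil3 is itself on the list of monocyte markers. Summed over the 5 genes of that list, the level was 253 to 531 CPM in WT and 848 to 1194 CPM in cKO at day 3, and Ly6c2 and Plac8 were called higher in cKO at all 3 days. The marker gene Ccr2 overlapped between WT and cKO at day 3 (25.5 to 121 and 64.8 to 94.4 CPM). It overlapped at day 7 too (72.5 to 267 and 69.3 to 158 CPM). At day 5 Ccr2 was higher in cKO without overlap (86.1 to 128 CPM in WT and 154 to 200 CPM in cKO). Neutrophil markers summed to 1587 to 3047 CPM in WT at day 3 and to 74.7 to 132 CPM at day 7. Their part in the fall of Chil3 was not tested.

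Cbr2 took the opposite course in WT and rose little in cKO. WT libraries were at 10.8, 6.86 and 3.87 CPM at day 3, 19.04, 12.2 and 12.2 at day 5 and 46.0, 53.5 and 41.7 at day 7. The rise from day 5 to 7 passed the test (3.25-fold in the means, log2 fold change 1.70 ± 0.29, edgeR adjusted p = 0.0283), though not without WT day 5 replicate 2 or 3 or WT day 7 replicate 2 (1.58 to 1.60). Cbr2 was chosen on values of these libraries, so that call is not independent of the choice. Libraries of cKO cells were at 2.51, 2.53 and 1.67 CPM at day 3, 4.15, 2.94 and 2.12 at day 5 and 2.88, 4.69 and 4.67 at day 7. The cKO level was below all WT libraries at each day, at 31.1% of the WT mean at day 3, 21.2% at day 5 and 8.67% at day 7.

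Arg1 had its highest level at day 3 in 1 library. WT libraries were at 81.9, 12.8 and 9.27 CPM at day 3, 2.27, 4.75 and 5.06 at day 5 and 3.81, 0.98 and 1.03 at day 7, and cKO libraries at 3.90, 10.4 and 3.66 CPM at day 3. Arg1 was called lower in cKO at day 3 (log2 fold change -2.54 ± 0.73, edgeR adjusted p = 0.0398), although the groups overlapped. Without WT replicate 1 the difference was -0.93 with an adjusted p of 0.432, without cKO replicate 1 it was -2.33 and without cKO replicate 3 -2.28, neither of them called, and without cKO replicate 2 it was -3.19, still called. With the replicate number as a block, the adjusted p was 0.0659 and the call stood in 8 of 13 alternative fits, with adjusted p from 0.0164 to 0.432. The fall of Arg1 in WT from day 3 to 5 (-3.09 ± 0.75, adjusted p = 0.0361) also rested on WT day 3 replicate 1, without which it was -1.45 and not called, and was lost without any one of the WT day 5 libraries.

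Mrc1 was at 612, 1540.1 and 1581 CPM in WT and 214, 598 and 549 CPM in cKO at day 7, the time of its widest gap. No cKO library reached the lowest WT library, but the log2 difference of -1.46 ± 0.42 was not called (edgeR adjusted p = 0.0887). Cd163 was at 16.2, 52.3 and 31.1 CPM in WT and 8.35, 15.6 and 15.5 CPM in cKO, with a difference of -1.33 ± 0.43 (adjusted p = 0.125). WT day 7 replicate 1 was the lowest of its group in both, and without it Mrc1 (-1.78), Cd163 (-1.66) and Clec10a (-2.13) were called lower in cKO. Folr2 overlapped at days 3 and 7, with log2 differences from -0.42 to -0.32.

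The lectins Mgl2 and Clec10a stood higher in cKO at the start. At day 3 Clec10a was at 2.80, 3.93 and 2.81 CPM in WT and 7.79, 12.9 and 8.26 CPM in cKO, and at day 7 at 2.61, 39.1 and 9.56 CPM in WT and 4.41, 5.56 and 6.504 CPM in cKO. Mgl2 was at 0.34, 1.17 and 1.07 CPM in WT and 2.26, 4.38 and 1.83 CPM in cKO at day 3. Neither gene overlapped between the genotypes at day 3, and neither passed the test (log2 differences 1.59 and 1.65, edgeR adjusted p = 0.141 and 0.0539). With the replicate block Mgl2 was called at day 3 (adjusted p = 0.0161), a call made in 3 of 12 alternative fits, with adjusted p from 0.0161 to 0.244. The change of the difference between day 3 and day 7, tested as an interaction, was -3.21 ± 0.86 for Clec10a and did not pass (adjusted p = 0.119), but it was called without WT day 7 replicate 1 (-3.72).

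**Figure D3:**
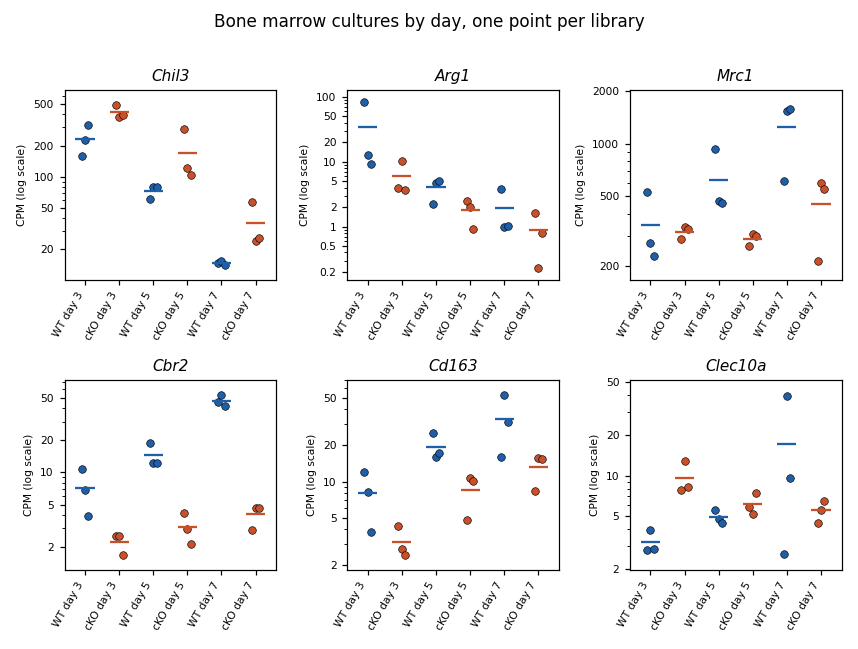
Levels in CPM (log axis) of the genes at days 3, 5 and 7 of culture, 1 point a library and lines through the group means for WT and cKO. Chil3 falls along the days with cKO above WT, and Cbr2 climbs in WT from 3.87 to 10.8 CPM at day 3 to 41.7 to 53.5 CPM at day 7 while cKO stays between 1.67 and 4.69 CPM.

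Across the time course edgeR called 1 of the 7 counted genes between the genotypes at day 3, beside 8.65% of all genes tested, 0 at day 5 beside 3.12%, and 0 at day 7 beside 1.82%. At an unadjusted p under 0.05 there were 3 such genes at day 5 and 4 at day 7, and DESeq2 called 1 and 2. In WT, 2 of 8 were called from day 3 to 5 beside 2.91%, and 2 of 8, Cbr2 among them, from day 5 to 7 beside 0.15%. In cKO, 0 of 8 were called from day 3 to 5 beside 4.89% (3 at an unadjusted p under 0.05, and 2 by DESeq2) and 1 from day 5 to 7 beside 0.0501% (0 when only these groups were fitted). The interaction called 0 of 7 beside 0.0439% (3 at an unadjusted p under 0.05, and 1 by DESeq2). Calls were gained for Cd163 at day 3 without WT replicate 3 (-1.68), for Mgl2 at day 3 without cKO replicate 3 (1.90), for Cbr2 in WT from day 3 to 5 without WT day 3 replicate 1 (1.42), for Chil3 (-1.89) and Cd163 (1.74) in cKO from day 3 to 5 without cKO day 5 replicate 1, and for Clec10a in WT from day 5 to 7 without WT day 7 replicate 1 (2.29).

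Of the 64 pathway genes, 8 of 53 were higher and 2 lower, with a median log2 fold change of 0.31 against 0.036 over all genes tested, at day 3 between cKO and WT. Cd209f, a lectin related to DC-SIGN, was at 0 to 0.48 CPM in WT and 11.4 to 21.9 CPM in cKO. Flt1, a receptor for vascular endothelial growth factor listed here with the interleukin-4 targets, rose by 3.88 ± 0.74 on the log2 scale (edgeR adjusted p = 0.00357), and the scavenger receptor Stab1 fell (-1.67 ± 0.26). At day 5 there were 4 higher and 1 lower, and at day 7 0 higher and 3 lower, Stab1 among them at each day and the selenium transport protein Selenop at day 7 (-2.72 ± 0.59). Summed interferon-stimulated genes were at 33.8 to 53.0 CPM in WT and 1361 to 2022 CPM in cKO at day 3, and their part in these results was not tested.

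In BMDMs of the double knockout experiment Cbr2, Mrc1 and Cd163 were lower in cKO in all 3 pairs of WT and cKO sets. Cbr2 was at 103, 67.1 and 145 CPM in WT set 1 and 7.24, 7.74 and 9.39 CPM in cKO set 1. In set 2 WT was at 14.99, 10.9 and 10.3 CPM and cKO at 1.18, 3.36 and 1.10 CPM, and in set 3 WT was at 118, 82.6 and 86.2 CPM and cKO at 5.67, 5.47 and 7.30 CPM. WT set 2 was well below WT sets 1 and 3, yet in each set all WT libraries were above all cKO libraries, by 12.9-fold, 6.41-fold and 15.6-fold in the means. In set 2 the log2 fold change was -2.69, and -3.40 without cKO set 2 replicate 2. Same-numbered libraries of WT sets 1 and 3 deviated together (r from 0.143 to 0.386), so these sets are not shown to be independent, although no pair of libraries was alike within counting noise.

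Mrc1 was at 1287, 1381 and 1204 CPM in WT set 1 and 461, 405 and 444 CPM in cKO set 1. In set 2 the WT values were 938, 912 and 906 CPM and the cKO values 307, 469.7 and 267 CPM, and in set 3 they were 1369, 1505 and 1384 CPM and 473, 396 and 429 CPM. Mrc1 fell without overlap in all 3 sets, as log2 fold changes -1.56 ± 0.13, -1.40 ± 0.13 and -1.71 ± 0.14 (edgeR adjusted p = 6.48e-09, 3.66e-08 and 1.44e-09). Cd163, at 55.5, 41.9 and 46.8 CPM in WT set 1 and 16.3, 19.5 and 20.8 CPM in cKO set 1, fell likewise in each set (log2 scale, -1.35, -0.96 and -1.55, with edgeR adjusted p = 4.7e-07, 7.21e-05 and 5.51e-08). Both genes were called in all 3 sets in every alternative fit that was run.

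Chil3 went the other way. It was at 32.9, 15.1 and 23.4 CPM in WT set 1 and 80.9, 89.1 and 49.7 CPM in cKO set 1, and in set 2 at 24.0, 47.7 and 46.7 CPM in WT and 57.3, 61.0 and 63.9 CPM in cKO. It rose in sets 1 and 3 (log2 fold changes 1.63 ± 0.31 and 1.68 ± 0.31, edgeR adjusted p = 0.000251 and 0.000173), and in set 2 the difference was 0.62 ± 0.30 (adjusted p = 0.154). Monocyte markers summed to 121 to 252 CPM in WT set 1 and 294 to 483 CPM in cKO set 1, and Ly6c2 and Plac8 were called higher in cKO in all 3 sets. The part of these markers in the rise was not tested.

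Arg1 was at 16.1, 2.81 and 7.14 CPM in WT set 1 and 0.95, 0.72 and 0.50 CPM in cKO set 1, and fell in sets 1 and 3 (log2 fold changes -3.55 ± 0.51 and -3.11 ± 0.46, edgeR adjusted p = 8.77e-06 and 1.16e-05). The value in set 1 was -2.70 without WT replicate 1, still called. In set 2, where WT libraries were at 0.88, 1.51 and 2.06 CPM and cKO libraries at 0.98, 0.72 and 0.89 CPM, the groups overlapped (log2 difference -0.74, adjusted p = 0.408).

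Folr2 and the lectins depended on the set. Folr2 was at 74.3, 58.7 and 51.8 CPM in WT set 2 and 30.8, 31.0 and 27.4 CPM in cKO set 2 and fell there (-1.05 ± 0.26, edgeR adjusted p = 0.00435), while in sets 1 and 3 it overlapped (log2 differences 0.17 and 0.23). Mgl2 was at 1.84, 1.65 and 2.02 CPM in WT set 2 and 0.62, 0.87 and 0.50 CPM in cKO set 2 and fell there (-1.45 ± 0.45, adjusted p = 0.0217), a call lost without WT replicate 1 or 3 or cKO replicate 1 or 3 (-1.30 to -1.45). Clec10a was at 45.9, 10.2 and 20.5 CPM in WT set 1 and 12.4, 8.79 and 10.1 CPM in cKO set 1, with overlap. Its calls as lower in sets 1 and 3 (-1.28 and -1.58, adjusted p = 0.0332 and 0.00863) rested on WT replicate 1 of each set, without which they were -0.52 and -0.42 and not called, and the call in set 1 was also lost without any 1 of its cKO libraries (-1.17 to -1.42).

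In all, 5 of 7 counted genes were called in set 1 beside 34.6% of all genes tested, 4 of 7 in set 2 beside 21.9% and 5 of 7 in set 3 beside 35.9%. Their median log2 fold change was -1.28 against -0.031 over all genes in set 1, -0.96 against -0.011 in set 2 and -1.55 against -0.055 in set 3. Of the 64 pathway genes in set 1, 17 of 56 were higher and 12 lower, with a median log2 fold change of -0.10 against -0.031 over all genes tested. In set 2 there were 9 higher and 13 lower of 56, and in set 3 16 higher and 15 lower. Cd209f was at 0 to 0.15 CPM in WT set 1 and 90.2 to 203 CPM in cKO set 1. The scavenger receptor Marco fell in all 3 sets (-3.80 ± 0.60, -4.04 ± 0.78 and -4.36 ± 0.63, edgeR adjusted p = 2.57e-05, 0.000432 and 8.31e-06), and Flt1 rose in sets 1 and 3 (4.07 ± 0.47 and 4.09 ± 0.47). Egr2, a transcription factor of the late interleukin-4 response, fell in set 2 (-4.14 ± 0.68).

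**Figure D4:**
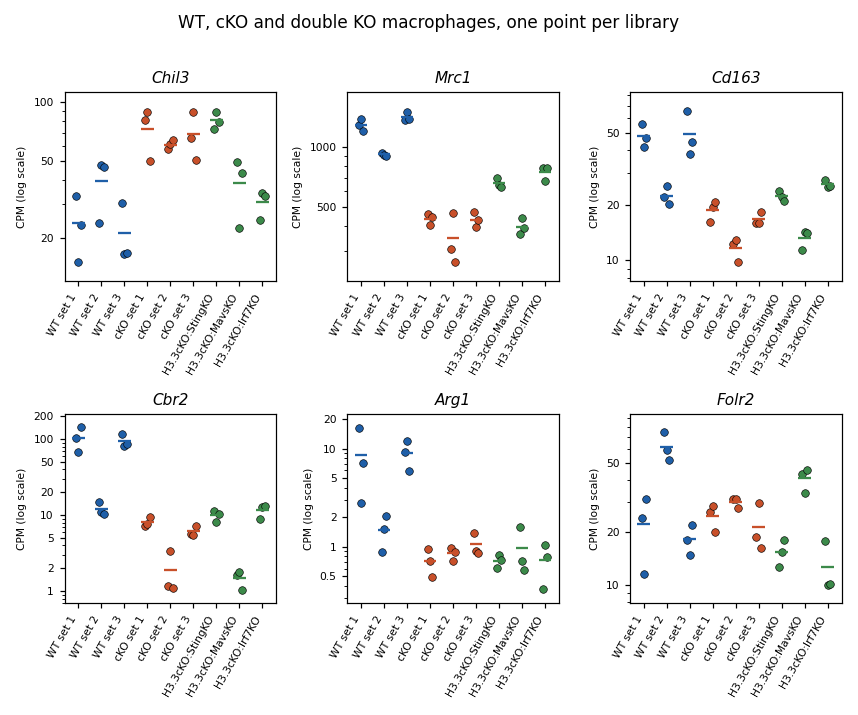
Levels in CPM (log axis) of the genes in the 3 WT sets, the 3 cKO sets and the double knockouts, 1 point a library. Cbr2 and Mrc1 have every WT set above its cKO set, and the H3.3cKO:StingKO and H3.3cKO:Irf7KO points of Mrc1, at 633 to 790.1 CPM, lie between the cKO sets and the WT sets.

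The double knockouts asked whether loss of a nucleic acid sensing or interferon gene alters the markers in H3.3cKO cells, and each was compared with the mean of the 3 cKO sets. With no label that ties a double knockout to a set, differences of set and of genotype cannot be told apart in these comparisons. In the order of the series H3.3cKO:StingKO follows set 1, H3.3cKO:MavsKO set 2 and H3.3cKO:Irf7KO set 3. Calls against these single sets are counted below. Mrc1 was at 698, 642 and 633 CPM in H3.3cKO:StingKO, 790.1, 674 and 788 CPM in H3.3cKO:Irf7KO and 366, 439 and 391 CPM in the libraries labelled H3.3cKO:MavsKO. The first and second group were above every cKO library of the 3 sets, and Mrc1 rose in both (log2 fold changes 0.70 ± 0.10 and 0.89 ± 0.10, edgeR adjusted p = 1.82e-05 and 2.2e-06). In the group labelled H3.3cKO:MavsKO the difference was -0.02 (95% interval -0.23 to 0.19). Cd163 rose in the same 2 double knockouts (0.54 ± 0.13 and 0.75 ± 0.12, adjusted p = 0.00182 and 0.00027). Each Cd163 call stood in 21 of 22 alternative fits. The log2 fold change ran from 0.25 to 0.94 in H3.3cKO:StingKO (adjusted p up to 0.263) and from 0.47 to 1.16 in H3.3cKO:Irf7KO (adjusted p up to 0.0634).

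Chil3 was at 24.7, 34.3 and 33.1 CPM in H3.3cKO:Irf7KO, 49.4, 22.5 and 43.4 CPM in the group labelled H3.3cKO:MavsKO and 73.02, 89.8 and 79.5 CPM in H3.3cKO:StingKO. It fell in H3.3cKO:Irf7KO below every cKO library (-1.13 ± 0.26, edgeR adjusted p = 0.00685, not called without H3.3cKO:Irf7KO replicate 1 at -0.999) and was called lower in the group labelled H3.3cKO:MavsKO (-0.81 ± 0.26, adjusted p = 0.0482), there in 9 of 22 alternative fits, with adjusted p from 0.0196 to 0.714. Without H3.3cKO:MavsKO replicate 2 that value was -0.54 and not called, and the call was also lost without H3.3cKO:MavsKO replicate 3, cKO set 1 replicate 1 or 2, any library of cKO set 2, or cKO set 3 replicate 1 or 2 (-0.73 to -0.91). Against cKO set 2 alone Chil3 was not called in that group either. The summed monocyte markers, which include Chil3, were at 67.3 to 213 CPM in H3.3cKO:Irf7KO and 294 to 483, 358 to 415 and 333 to 447 CPM in the 3 cKO sets.

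Folr2 was at 12.7, 15.4 and 18.2 CPM in H3.3cKO:StingKO, 17.8, 10.03 and 10.1 CPM in H3.3cKO:Irf7KO and 43.1, 33.7 and 45.4 CPM in the group labelled H3.3cKO:MavsKO. It fell in the first (-0.71 ± 0.23, edgeR adjusted p = 0.0199) and the second (-0.995 ± 0.24, adjusted p = 0.00778) and was called higher in the last (0.70 ± 0.21, adjusted p = 0.0329). The first and second groups overlapped the cKO libraries, and these calls stood in 18 of 22 alternative fits, with adjusted p from 0.00113 to 0.193, in 19 of 22 alternative fits, with adjusted p from 0.000459 to 0.218, and in 14 of 22 alternative fits, with adjusted p from 0.00507 to 0.963. The call was lost without H3.3cKO:StingKO replicate 1 (-0.58) or 2 (-0.71) in the first and without H3.3cKO:Irf7KO replicate 2 (-0.85) or 3 (-0.86) in the second. In the group labelled H3.3cKO:MavsKO it was lost without replicate 1 or 3 of that group, replicate 3 of cKO set 1 or 2, or replicate 1 or 3 of cKO set 3 (0.61 to 0.68), and also against cKO set 2 alone.

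Cbr2 was at 11.5, 8.25 and 10.3 CPM in H3.3cKO:StingKO, 8.82, 12.9 and 13.2 CPM in H3.3cKO:Irf7KO and 1.64, 1.81 and 1.02 CPM in the group labelled H3.3cKO:MavsKO. The first and second lay above most cKO libraries and below the WT libraries of sets 1 and 3, but both overlapped the WT libraries of set 2. These values turn on the reference, since cKO set 2 had lower Cbr2 than the others: against set 1, 2 or 3 alone the log2 difference was 0.30, 2.42 or 0.69 for H3.3cKO:StingKO, 0.52, 2.64 or 0.91 for H3.3cKO:Irf7KO and -2.43, -0.32 or -2.04 for the group labelled H3.3cKO:MavsKO.

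Of the 7 counted genes edgeR called 3 in H3.3cKO:StingKO beside 36.4% of all genes, 2 in the group labelled H3.3cKO:MavsKO beside 9.32% and 4 in H3.3cKO:Irf7KO beside 10.6%. The 3 comparisons share the cKO libraries. Against the set that each follows in the series the counts were lower. With cKO set 1 alone as reference 1 was called in H3.3cKO:StingKO, and with set 2 alone 0 in the group labelled H3.3cKO:MavsKO. With set 3 alone 2 were called in H3.3cKO:Irf7KO. Mgl2 was also called in H3.3cKO:StingKO without cKO set 1 replicate 3 (0.98). Of the 56 pathway genes tested, 18 were higher and 8 lower in H3.3cKO:StingKO, 6 and 3 in the group labelled H3.3cKO:MavsKO, and 6 and 8 in H3.3cKO:Irf7KO. Selenop rose in H3.3cKO:StingKO (1.10 ± 0.21, edgeR adjusted p = 0.000268) and Stab1 in H3.3cKO:Irf7KO (0.62 ± 0.10, adjusted p = 0.000197).

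The antibody cultures asked whether blocking the type I interferon receptor alters the cells. In WT, Mrc1, Cbr2, Mgl2 and Clec10a were lowest in the control antibody arm. Mrc1 was at 927, 1066 and 994 CPM with no antibody, 177, 189 and 236 CPM with the control antibody and 1178, 1941 and 513 CPM with the IFNAR1 antibody. The control antibody arm lay below all other WT libraries, and the other arms overlapped.

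In WT Mrc1 was higher with the IFNAR1 antibody than with the control antibody (log2 fold change 2.59 ± 0.34, edgeR adjusted p = 0.00191). It was lower with the control antibody than with none (-2.31 ± 0.34, adjusted p = 0.00237). Both comparisons share the WT control antibody libraries. The IFNAR1 antibody was not tested against no antibody. Cbr2 was at 65.7, 56.0 and 53.2 CPM with no antibody, 10.6, 8.27 and 11.2 CPM with the control antibody and 69.3, 119 and 18.4 CPM with the IFNAR1 antibody. Its control arm was again the lowest, with log2 fold changes of 2.78 ± 0.46 (adjusted p = 0.00318, 2.14 without WT IFNAR1 antibody replicate 2) and -2.55 ± 0.46 (adjusted p = 0.00651).

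Clec10a in WT was at 36.9, 39.2 and 41.8 CPM with no antibody, 7.14, 6.63 and 8.79 with the control and 25.8, 26.0 and 14.2 with the IFNAR1 antibody. Mgl2 was at 2.53, 1.27 and 1.87 CPM, then at 0.28, 0.23 and 0.55 CPM and at 1.69, 1.63 and 1.71 CPM in the same arms. For both lectins the control arm lay below the other arms without overlap. Clec10a fell with the control antibody (-2.40 ± 0.24, edgeR adjusted p = 0.000507) and Mgl2 did too (-2.49 ± 0.45, adjusted p = 0.0059), and both were higher with the IFNAR1 antibody than with the control (1.56 and 2.33, adjusted p = 0.0028 and 0.00533). The Mgl2 calls were lost without WT control antibody replicate 2 (-2.22 and 2.05). Arg1 ran the other way, at 3.92, 2.12 and 1.82 CPM with no antibody, 7.84, 8.61 and 10.4 with the control and 1.65, 5.40 and 7.03 with the IFNAR1 antibody, and rose with the control antibody (1.77 ± 0.42, adjusted p = 0.0197). That call was lost without WT control antibody replicate 2 or 3 or WT no antibody replicate 2 or 3 (1.56 to 1.80).

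**Figure D5:**
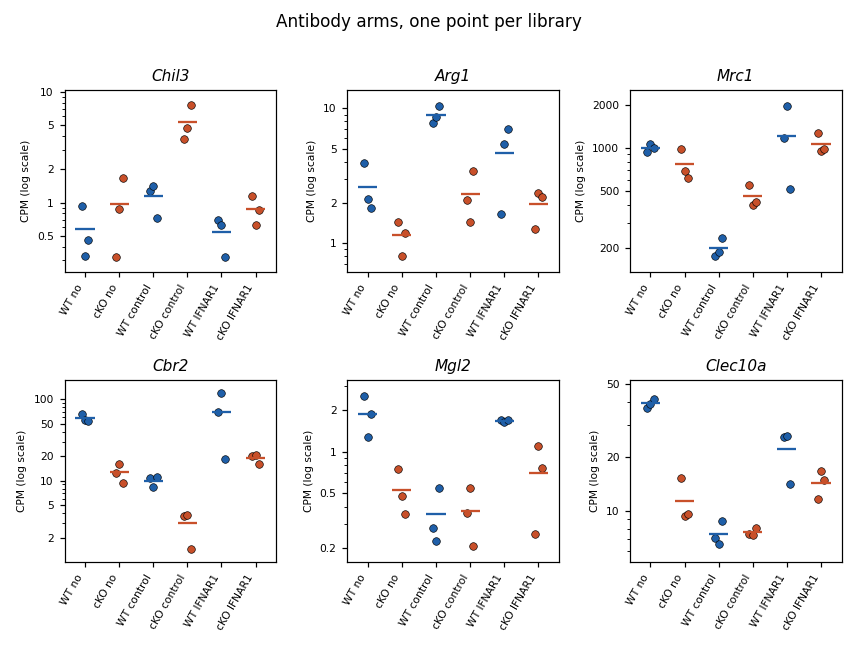
Levels in CPM (log axis) of the genes in BMDMs grown with no antibody, a control antibody or an IFNAR1 antibody, 1 point a library for WT and cKO. The WT control antibody points of Mrc1 (177 to 236 CPM), Cbr2 and Clec10a lie below the other WT points, and the cKO points of Cbr2 are also lowest with the control antibody.

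In WT 5 of 8 genes were called between control and no antibody, beside 9.74% of all genes tested, and 4 of 8 between IFNAR1 and control antibody, beside 11.2%. Both counts include Cbr2, which was chosen on values of these libraries. The second count was 0 when only the groups compared were fitted (adjusted p = 0.0595 for Mrc1, Mgl2 and Clec10a and 0.0752 for Cbr2), with log2 fold changes close to those above. With the replicate number as a block within each genotype the first count was 3, since Arg1 (adjusted p = 0.107) and Cbr2 (adjusted p = 0.0505) were not called. Without WT control antibody replicate 2, Cbr2 was also not called (-2.42). Of the 51 pathway genes tested, 5 were higher and 14 lower with the control antibody than with none in WT, among them Irf4, a transcription factor of the interleukin-4 response (-2.34 ± 0.61, edgeR adjusted p = 0.0291), and Marco (2.73 ± 0.56, adjusted p = 0.011). Summed stromal markers were at 13.3 to 98.4, 13.1 to 225 and 5.65 to 110.4 CPM in the WT arms and at 36.6 to 79.0, 164 to 306 and 42.4 to 87.2 CPM in the cKO arms, and their part in these results was not tested.

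In cKO cells Mrc1 and Cbr2 were again lowest in the control antibody arm. Mrc1 was at 987, 688 and 618 CPM with no antibody, 553, 401 and 422 with the control and 1257, 952 and 978 with the IFNAR1 antibody. Cbr2 was at 12.5, 15.9 and 9.46 CPM with no antibody, 3.72, 3.79 and 1.45 with the control and 19.97, 20.4 and 16.2 with the IFNAR1 antibody. No control arm library reached the other arms, and both were called higher with the IFNAR1 antibody than with the control (Mrc1 1.21 ± 0.33 and Cbr2 2.62 ± 0.52, edgeR adjusted p = 0.0461 and 0.0133), as was Clec10a (0.90, adjusted p = 0.0486). The Mrc1 and Clec10a calls were lost on leaving out any 1 cKO library of these arms (Mrc1 1.08 to 1.37 and Clec10a 0.78 to 1.04), and the Cbr2 call without cKO control antibody replicate 3 (2.34).

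Chil3 was low in all arms and highest in cKO with the control antibody. In cKO it was at 0.32, 0.88 and 1.68 CPM with no antibody, 3.72, 4.70 and 7.68 with the control and 1.14, 0.63 and 0.86 with the IFNAR1 antibody, and the WT control arm was at 1.26, 1.42 and 0.73 CPM. It rose in cKO with the control antibody against none (2.48 ± 0.46, edgeR adjusted p = 0.0176), fell with IFNAR1 against control antibody (-2.53 ± 0.47, adjusted p = 0.0106) and was higher in cKO than in WT with the control antibody (2.13 ± 0.44, adjusted p = 0.00944). All 3 calls share the cKO control antibody libraries and were lost without its replicate 3 (2.12, -2.17 and 1.77), and the first was lost also without cKO control antibody replicate 2 (2.53) or cKO no antibody replicate 1 (1.99) or 2 (2.46). Without cKO no antibody replicate 3 the first was 3.20, still called.

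Between the genotypes the arms differed in which genes were called. With no antibody Mgl2 (-1.77 ± 0.40, edgeR adjusted p = 0.0128) and Clec10a (-1.78 ± 0.23, adjusted p = 0.000376) were lower in cKO, whose libraries were at 0.75, 0.48 and 0.35 CPM for Mgl2 and 15.2, 9.37 and 9.60 CPM for Clec10a, below all WT libraries of that arm. The Mgl2 call was lost without cKO no antibody replicate 2 (-1.71) or 3 (-1.56). With the control antibody Arg1, at 2.08, 1.45 and 3.42 CPM in cKO, was lower (-1.93 ± 0.46, adjusted p = 0.0214), a call lost without WT replicate 2 or 3 or cKO replicate 1 or 2 (-1.77 to -1.958), and Chil3 and Mrc1 were higher. Mrc1 (1.19 ± 0.33, adjusted p = 0.0463) lost its call on leaving out any 1 of the 6 libraries (1.03 to 1.32) and was called in 6 of 13 alternative fits, with adjusted p from 0.000332 to 0.186. Cbr2 was lower in cKO in each arm, at 21.6%, 29.8% and 27.4% of the WT mean, with 1 WT library of the IFNAR1 arm overlapping. In that arm the log2 fold change was -1.86, and -1.22 without WT IFNAR1 antibody replicate 2.

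Counted over the 7 genes, 2 were called with no antibody beside 8.16% of all genes, 3 with the control antibody beside 5.11% and 0 with the IFNAR1 antibody beside 0.698%. For the last, edgeR gave 4 genes at an unadjusted p under 0.05, and DESeq2 called 0. In cKO, 4 of 8 genes, Cbr2 among them, were called between IFNAR1 and control antibody beside 4.68%, and 1 of 8 between control and no antibody beside 2.09%. Whether the antibody effects differ between genotypes was tested as interactions. They called 0 of 7 for IFNAR1 against control antibody (background 0%, 1 gene at an unadjusted p under 0.05, 0 by DESeq2) and 0 of 7 for control against no antibody (background 0%, 3 at an unadjusted p under 0.05, 1 by DESeq2). The interaction of Clec10a for control against no antibody was 1.81 ± 0.34 (edgeR adjusted p = 0.404). Calls were gained for Arg1 in WT between IFNAR1 and control antibody without WT IFNAR1 antibody replicate 3 (-1.42), for Clec10a between genotypes with the IFNAR1 antibody without the same library (-0.85), and for Cd163 between genotypes with no antibody without WT replicate 1 (1.53).

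At day 8 IFNγ lowered Cd163 in both genotypes. In WT BMDMs Cd163 was at 27.3, 28.8 and 26.2 CPM untreated and 2.57, 2.08 and 2.41 CPM after IFNγ, and in cKO at 27.4 and 24.3 CPM untreated and 2.41 and 1.41 CPM after IFNγ. The groups with and without IFNγ lay far apart in both genotypes. Cd163 fell by 11.6-fold in WT (log2 fold change -3.53 ± 0.19, edgeR adjusted p = 1.28e-06) and by 13.5-fold in cKO (-3.91 ± 0.27, adjusted p = 9.58e-06). The cKO libraries with IFNγ held only 4 and 12 Cd163 counts. Over the alternative fits the cKO value ran from -4.16 to -0.998, and in those that left out 1 library from -4.16 to -3.44.

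Clec10a moved in the opposite direction. It was at 5.16, 4.46 and 3.68 CPM untreated and 14.6, 17.1 and 17.6 CPM after IFNγ in WT, and at 4.95 and 4.40 CPM untreated and 16.3 and 14.4 CPM after IFNγ in cKO, and rose in both (log2 fold changes 1.89 ± 0.19 and 1.70 ± 0.23, edgeR adjusted p = 4.31e-05 and 0.000487). Mrc1 was at 559, 965 and 728 CPM untreated and 432, 385 and 342 CPM after IFNγ in WT and fell (-0.96 ± 0.20, adjusted p = 0.00367). In cKO it was at 526 and 459 CPM untreated and 302 and 339 CPM after IFNγ, a difference of -0.62 ± 0.24 that missed the threshold (adjusted p = 0.0721). Cbr2 was at 15.4, 14.1 and 22.0 CPM untreated and 10.9, 8.63 and 14.1 CPM after IFNγ in WT (difference -0.61, adjusted p = 0.0828) and at 4.14 and 5.57 CPM untreated and 6.64 and 4.48 CPM after IFNγ in cKO, below WT in both conditions.

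Of the 5 genes that passed the filter, 3 were called with IFNγ in WT beside 38.9% of all genes tested, and 2 in cKO beside 33.9%. Both counts were 0 when a pair of day 8 libraries left out for conflicting labels was placed by title. In plain CPM, Cd163 was at 27.8 in the library of that pair titled with IFNγ and at 1.33 in the one titled without it. Placed cKO libraries were at 34.2 and 29.0 untreated and at 1.11 and 1.26 with IFNγ. The Cd163 levels of the pair thus lay near those of the condition opposite to each title. Which label is right was not tested. The WT calls each stood in 14 of 15 alternative fits and the cKO calls in 12 of 13. Placing the pair by the library name in the labels was among the fits that kept them. Between the genotypes edgeR called 0 of the 4 counted genes untreated (background 0.658%) and 0 with IFNγ (5.48%), with 1 and 0 genes at an unadjusted p under 0.05 and 0 by DESeq2 in both, and the interaction called 0 (background 0%, 0 at an unadjusted p under 0.05, 0 by DESeq2). The interaction for Cd163 was -0.38 (95% interval -0.99 to 0.24). Of the 50 pathway genes tested in WT, 22 rose and 11 fell with IFNγ, the feedback inhibitors Socs1 (6.99 ± 0.22, edgeR adjusted p = 1.97e-07) and Socs3 (3.91 ± 0.17) among those that rose, and in cKO 21 rose and 7 fell.

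Across the 27 groups, with each group's mean log2 level centred on its experiment, the genes did not move as one. The pairs most alike were Mrc1 and Cbr2 (Pearson r = 0.81 over 27 groups) and Mrc1 and Cd163 (r = 0.69), Cbr2 and Clec10a had r = 0.56, and Chil3 and Cbr2 ran against each other (r = -0.48). These are descriptions without a test, over groups that share libraries' depth, experiments and genotypes and partly chose the genes. Of 11058 genes compared in the same way, those most like Cbr2 were Acss1, an enzyme that makes acetyl-CoA (r = 0.93), Ephx1, an epoxide hydrolase (r = 0.91), and Plxnd1, a semaphorin receptor (r = 0.91). For Mrc1 they were Fcrls (r = 0.85), Camta1 (r = 0.82) and Fam213a (r = 0.81), and for Arg1 Gstm2, a glutathione transferase (r = 0.86), Marco (r = 0.83) and Pygl, a glycogen phosphorylase (r = 0.82). None is named for Retnla, whose levels outside 2 peritoneal groups were at or near 0.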

How the data were processed

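The libraries are bulk RNA-seq of mouse BMDM progenitors (days 3 and 5), BMDMs and resident peritoneal macrophages. The authors deposited, for each library, whole-number read counts per gene from STAR, made after adapter trimming with cutadapt and alignment to mm10 per the submitters' notes (versions are not given in the sources used here). The unstranded column was used. Rows that name no gene, 18.12% to 78.09% of the reads of a library, were left out of library sizes and tests.

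The members and gene lists were chosen with earlier results of these data known. Groups came from the titles. A pair of cKO day 8 libraries whose labels conflict on IFNγ was left out, which leaves 79 of 81 libraries. Within each experiment all groups were fitted in 1 model with edgeR 4.0.16 (R 4.3.3, limma 3.58.1): TMM scaling, genes kept by filterByExpr (smallest count 10, smallest total 15), quasi-likelihood tests and Benjamini-Hochberg adjustment over all genes tested, with calls at an adjusted p under 0.05. Log2 fold changes are given with their SE. The double knockouts were compared with the mean of the 3 cKO sets. P-values measure the spread between libraries titled as biological replicates, at the depths given, and intervals and floors cover no other error. The procedure was tested on simulated data. All 9 members are reported, and the pathway genes named are those with the largest fold changes past the threshold and a mean log2 CPM of at least 0 in a comparison, at most 5 each. Genes most like a member were ranked by Pearson r. The call of 1 marker gene is not reported here.

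Alternatives were DESeq2 1.42.0, RLE scaling, other filters, the stranded column, only the groups compared, other cKO references, each library left out and the replicate number as a block. Same-numbered libraries come from no stated shared animal. Their deviations from the group means correlated above 0.1 in every pair for WT and cKO at day 3 (r from 0.126 to 0.419), day 7 (0.153 to 0.467) and in peritoneal macrophages (0.144 to 0.194), for WT with and without IFNγ (0.335 to 0.451), WT with control and no antibody (0.145 to 0.284) and cKO days 5 and 7 (0.233 to 0.492). The same held for 3 pairs of groups not compared with each other: cKO with no and IFNAR1 antibody (0.201 to 0.322), cKO days 3 and 7 (0.138 to 0.415) and WT sets 1 and 3 (0.143 to 0.386). Such pairing is read from the data alone. The main tests took no account of it, and the replicate number entered only as a block among the alternatives.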

Additional observations from a re-analysis of the deposited data

Results flagged for a closer look

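Some genes differed between cKO and WT in opposite directions in different experiments, with no overlap of libraries in either, and the differences between experiments were not tested. Chil3 was higher in all cKO than in all WT libraries with the control antibody and lower in all of them in peritoneal macrophages, and the log2 fold changes lay 4.71 apart. Mrc1 had the same pattern in the same experiments, 4.55 apart. Mgl2 was higher in all cKO libraries at day 3 and lower in all of them in BMDMs with no antibody, 3.42 apart. Clec10a did so as well, 3.37 apart.

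A pair of cKO day 8 libraries with conflicting labels entered no comparison, and some of their levels, in plain CPM of counts on genes, were above the highest WT untreated library. Chil3 was at 0.667 CPM in the library titled without IFNγ, against 0.435. Arg1 was at 0.620 CPM in the library titled with IFNγ, against 0.543. Clec10a was at 6.62 CPM in the library titled with IFNγ and 10.5 CPM in the library titled without it, against 6.45.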

How the results depend on the processing

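Counts of called genes that moved by over 1.5 times are given here, and the cause was not tested except where fewer samples or genes entered by construction. DESeq2 called 2 genes in cKO against WT at day 3 (1 in edgeR), 1 at day 5 (0), 2 at day 7 (0), 4 in peritoneal macrophages (2), 2 in cKO from day 3 to 5 (0), 2 in cKO between control and no antibody (1), 1 in the interaction of day 7 with day 3 (0) and 1 in that of control antibody, an alternative comparison chosen after seeing the data (0). With no filter on low counts there were 4 in peritoneal macrophages, 1 in cKO from day 3 to 5 and 2 in cKO between control and no antibody, and with a mean of at least 1 CPM 1 between genotypes with no antibody (2). With the stranded column there were 2 at day 3 (1) and 2 in cKO between IFNAR1 and control antibody (4). With only the groups compared there were 5 in H3.3cKO:StingKO (3), 0 in WT between IFNAR1 and control antibody (4), 1 in WT from day 3 to 5 (2), 1 in WT from day 5 to 7 (2), 0 in cKO from day 5 to 7 (1), 1 in cKO from day 3 to 5 (0), 3 in cKO between control and no antibody (1) and 2 in the control antibody interaction (0). RLE scaling gave 1 in the group labelled H3.3cKO:MavsKO (2). Against cKO set 1 alone 1 gene was called in H3.3cKO:StingKO (3), against set 2 0 in the group labelled H3.3cKO:MavsKO (2), and against set 3 1 in that group and 2 in H3.3cKO:Irf7KO (4). Placing the conflicting day 8 libraries by title gave 0 with IFNγ in WT (3) and 0 in cKO (2), while placing them by library name kept these calls. Against cKO set 2, Flt1 in H3.3cKO:Irf7KO turned from -0.95 to 0.030, and Il13ra1 in the group labelled H3.3cKO:MavsKO from -0.50 to 0.14.

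With the replicate number as a block, calls were 1 in peritoneal macrophages (2), 1 in the group labelled H3.3cKO:MavsKO (2), 2 in cKO from day 3 to 5 (0) and 2 in cKO between control and no antibody (1). With the block within each genotype they were 3 in cKO from day 3 to 5, 3 in cKO between control and no antibody, 3 in WT between control and no antibody (5) and 1 in WT from day 3 to 5 (2). Outside the pairs of groups named in the processing the samples share only a number.

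Leaving out 1 library at a time gave, between genotypes, 0 to 2 calls at day 3, 0 to 0 at day 5, 0 to 3 at day 7, 0 to 0 at day 8 untreated and with IFNγ, 1 to 3 in peritoneal macrophages, 1 to 3 with no antibody, 1 to 2 with control antibody, 0 to 1 with IFNAR1 antibody and 4 to 5, 3 to 4 and 4 to 5 in sets 1, 2 and 3. It gave 2 to 4 for H3.3cKO:StingKO, 0 to 1 for the group labelled H3.3cKO:MavsKO and 3 to 4 for H3.3cKO:Irf7KO, 0 to 2 and 0 to 3 for the WT steps in time, 0 to 2 and 0 to 1 for the cKO steps, 3 to 3 and 2 to 2 for IFNγ in WT and cKO, 3 to 5 and 0 to 2 for IFNAR1 against control antibody, 2 to 5 and 0 to 1 for control against no antibody, 0 to 1 for the interaction of day 7 with day 3 and 0 to 0 for the other interactions. Where a group keeps 1 library it is assumed to vary like the others. Low counts limit Retnla in culture, Folr2 in peritoneal macrophages and Arg1, Chil3 and Mgl2 at day 8. Chil3 had 0 to 6 counts in the placed day 8 libraries, and how far depth accounts for that was not tested.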

Other observations

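In the cKO day 8 library titled with IFNγ, plain CPM of the other genes were 27.8 for Cd163, 426 for Mrc1, 5.89 for Cbr2 and 4.13 for Folr2. In the library titled without IFNγ they were 1.33 for Cd163, 337 for Mrc1, 3.43 for Cbr2 and 6.48 for Folr2. Retnla had no count in either.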
